A study of Mus musculus with 8 samples.

Results

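The genes described here make, carry and export cholesterol in adipose precursors. They were picked by symbol from the textbook pathway, with earlier results of these data known. Their counts and ranks against all probe sets are therefore a description and not an independent test. Of the 31 listed genes, 29 had a probe set annotated with exactly the 1 symbol of that gene, among 19938 genes measured in this way. They comprised 18 genes of sterol synthesis, 4 regulators of the transcription factor SREBP2 (Srebf2 itself included), 3 genes of intracellular sterol transport, and 4 genes of efflux and of the nuclear receptor LXR. Acat2 and Nr1h2 had no such probe set and are named only.

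Expression was measured on 8 Affymetrix Mouse Gene 1.0 ST arrays, 2 for each of 4 groups. The groups were visceral adipose precursors (viAPs) from perigonadal fat of mice given a high fat diet (HFD, D12492), viAPs of mice given a standard diet (SD), subcutaneous adipose precursors (scAPs) from inguinal fat on HFD, and scAPs on SD. All mice were male C57BL/6J animals of 7 to 8 weeks, without any engineered allele, and the diets were fed for 3 days. Each array held RNA pooled from 3 mice, from cells that were depleted of CD45+ and CD31+ cells on beads and then selected for SCA-1, so the p-values below measure the spread between pools. The comparisons address what a short HFD does to sterol genes in each depot, and whether the depots differ.

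Animal cells build cholesterol from acetyl-CoA through mevalonate, isoprenoid diphosphates, squalene and lanosterol. When the membrane of the endoplasmic reticulum is poor in sterol, SCAP escorts SREBP2 to the Golgi, where it is cleaved and freed to activate the synthesis and uptake genes. INSIG proteins hold SCAP back when sterol is plentiful, and oxysterols then activate LXR, which drives efflux pumps such as ABCA1 and the ligase MYLIP that marks lipoprotein receptors for breakdown.

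The upstream sequences show which letters the genes of the 2 sides carry at their start sites. The 250 bases before the start were read from RefSeq (GRCm38.p6), which held 25 of the 31 listed genes; Npc1, Sqle, Fdps, Stard4, Abcg1 and Fdft1 had no entry. Hmgcs1, Msmo1 and Cyp51 are shown as examples of genes with large increases, and Abca1 because it stands on the LXR side. Idi1 rose more than Hmgcs1 in both depots and is not shown. Their windows lie at chr13:119690101-119690350, plus strand, chr8:64733579-64733828, minus strand, chr5:4104698-4104947, minus strand and chr4:53159896-53160145, minus strand. Each is written 5′ to 3′ on the gene's strand, with capitals for CCAAT or its reverse complement ATTGG (the NF-Y box) and for TCACNCCAC (the core of a sterol response element).
Hmgcs1: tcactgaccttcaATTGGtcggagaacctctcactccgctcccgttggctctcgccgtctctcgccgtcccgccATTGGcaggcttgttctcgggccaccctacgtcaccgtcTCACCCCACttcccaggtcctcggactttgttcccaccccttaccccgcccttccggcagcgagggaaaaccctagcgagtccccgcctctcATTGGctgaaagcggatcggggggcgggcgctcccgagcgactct
Msmo1: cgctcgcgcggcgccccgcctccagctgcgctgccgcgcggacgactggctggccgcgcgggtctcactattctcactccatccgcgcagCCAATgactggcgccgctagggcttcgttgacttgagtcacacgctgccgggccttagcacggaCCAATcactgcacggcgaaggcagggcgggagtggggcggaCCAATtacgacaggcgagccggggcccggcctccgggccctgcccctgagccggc
Cyp51: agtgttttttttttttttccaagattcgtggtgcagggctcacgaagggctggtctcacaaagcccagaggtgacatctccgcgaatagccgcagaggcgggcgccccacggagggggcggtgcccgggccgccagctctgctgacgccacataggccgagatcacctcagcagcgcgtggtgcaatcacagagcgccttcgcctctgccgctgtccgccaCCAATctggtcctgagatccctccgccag
Abca1: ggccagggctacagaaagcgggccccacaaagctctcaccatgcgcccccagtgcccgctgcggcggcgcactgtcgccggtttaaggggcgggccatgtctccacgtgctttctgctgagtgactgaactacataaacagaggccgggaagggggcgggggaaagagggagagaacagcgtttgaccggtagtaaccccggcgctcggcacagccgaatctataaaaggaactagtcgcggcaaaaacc

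Both strands were searched, no 2 of the matches overlapped, and a gene with several starts counted when any of its windows held the motif. Only exact matches within the windows counted. Sites that differ by a base or lie elsewhere were not searched for, so a gene without a match may still carry such a site. Hmgcs1 held 3 CCAAT boxes and TCACCCCAC, the only exact match of the sterol element core among the 25 genes, against 1.22% of 27025 genes in the table. Variants of the core were not searched for in the other genes. Msmo1 held 3 CCAAT boxes, Cyp51 held 1, and Abca1 held neither motif. CCAAT was found in 20 of the 25 genes, or 80.0%, against 37.5% of all genes. It did not separate the genes that responded to HFD from the rest of the SREBP2 side: 10 of the 10 genes with an entry that rose in at least 1 depot held it, and so did 9 of the 10 SREBP2-side genes that rose in neither. Of the 4 efflux and LXR genes with an entry, Mylip alone held it. The LXR repeat (GGTCA, 5 open bases, GGTCA) had no exact match in the windows of the 25 genes, and 0.0703% of all genes had one. This does not show that the efflux and LXR genes lack an LXR site.

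Levels are given as log2 of the deposited intensity, and a change is the HFD mean minus the SD mean on that scale. A gene was called when its adjusted p from limma (Benjamini-Hochberg) was under 0.05. The 17 genes that passed the filter of the study's methods (expression over 7 in log2 on 3 arrays or more, and variability among the upper tercile of probe sets) took their p from the fit over the 3076 probe sets passing it, and the other 12 genes from the fit over all 21789 probe sets with 1 symbol. That filter favours genes that differ between arrays, so counts among the genes that passed it are not counts over all members. Of the 17, 8 passed only with the help of HFD arrays, since fewer than 3 of their SD arrays were above 7: Idi1, Ggps1, Fdft1, Sqle, Cyp51, Msmo1, Hsd17b7 and Dhcr7.

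The samples kept the marker of their cell type, with Pdgfra between 11.0 and 11.6 on every array, while Ly6a, which encodes SCA-1, had no probe set with 1 symbol. Ptprc, which encodes CD45, lay between 4.81 and 5.67, the macrophage marker Cd68 between 6.29 and 7.84, and Adipoq of adipocytes between 4.58 and 5.98. 1 array went against its depot label. SD viAP replicate 4 had Tbx15, a gene of subcutaneous precursors, at 9.77 against 4.70 on SD viAP replicate 3, and Tcf21, a gene of visceral precursors, at 5.32 against 9.61. On both genes it lay with the scAP arrays. Diet changes of single genes in viAPs that move by over 1.5 times without it, and viAP calls that change, are therefore also given without it. The scAP changes do not use this array, but their p-values do. For scAPs the number of calls without it is given below, and the genes whose scAP call changes are not named. The SD viAP group is then 1 pool, replicate 3, and a p-value takes its spread from the other 3 groups, on the assumption that this pool varies like them. Of the 29 sterol genes, 22 were lower on it than on replicate 3, with a median gap of 0.28.

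In viAPs, genes at both ends and in the middle of the route from acetyl-CoA to cholesterol were higher on HFD. Of 25 SREBP2-side genes 12 rose and none fell, and of the 4 efflux and LXR genes none was called. The 12 genes were all among the 17 that passed the filter, where 60.5% of the 3076 probe sets were called higher in viAPs, and 4.49% lower, so being called higher was the usual outcome there. In the fit over all probe sets with 1 symbol, 11 of the 29 genes were called higher, against 8.45% of 21789. On 22 of the 29 genes both HFD viAP arrays lay above both SD viAP arrays, and on 3 both lay below. Over all probe sets with 1 symbol these shares were 28.9% and 31.2%. Among probe sets passing the filter they were 78.7% and 8.32%, so lying above was the usual outcome there. The median change was 0.75 over the SREBP2 side and 0.24 over the efflux and LXR side, against -0.05 over all probe sets with 1 symbol, 0.31 over genes expressed over 7 in log2 on 3 arrays or more and 0.63 over probe sets passing the filter. These medians depend on SD viAP replicate 4. Without it the SREBP2-side median exceeded the efflux and LXR one by 0.19, against 0.51 with it.

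In scAPs fewer probe sets were called over the whole table. Of the 25 SREBP2-side genes 10 rose and none fell, and none of the 4 efflux and LXR genes was called. All 10 passed the filter, where 20% of probe sets were called higher and 0.715% lower, and in the fit over all probe sets 9 of 29 genes were called higher, against 1.06%. Both HFD scAP arrays lay above both SD scAP arrays for 22 genes and below for 1, while the shares over all probe sets were 21.7% and 18.8%. Among probe sets passing the filter the shares were 62.3% and 7.38%. The median change was 0.63 over the SREBP2 side and 0.03 over the efflux and LXR side, against 0.00 over all probe sets with 1 symbol and 0.18 over the genes expressed over 7 and 0.40 over probe sets passing the filter. Ranked by the size of the increase among all 21789 probe sets, Cyp51 stood at 2, Sqle at 3 and Idi1 at 4 in scAPs, and 9 of the 29 genes were among the first 100. In viAPs Cyp51 stood at 30, Msmo1 at 53 and Idi1 at 75, and 3 of the 29 were among the first 100.

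**Figure D1:**
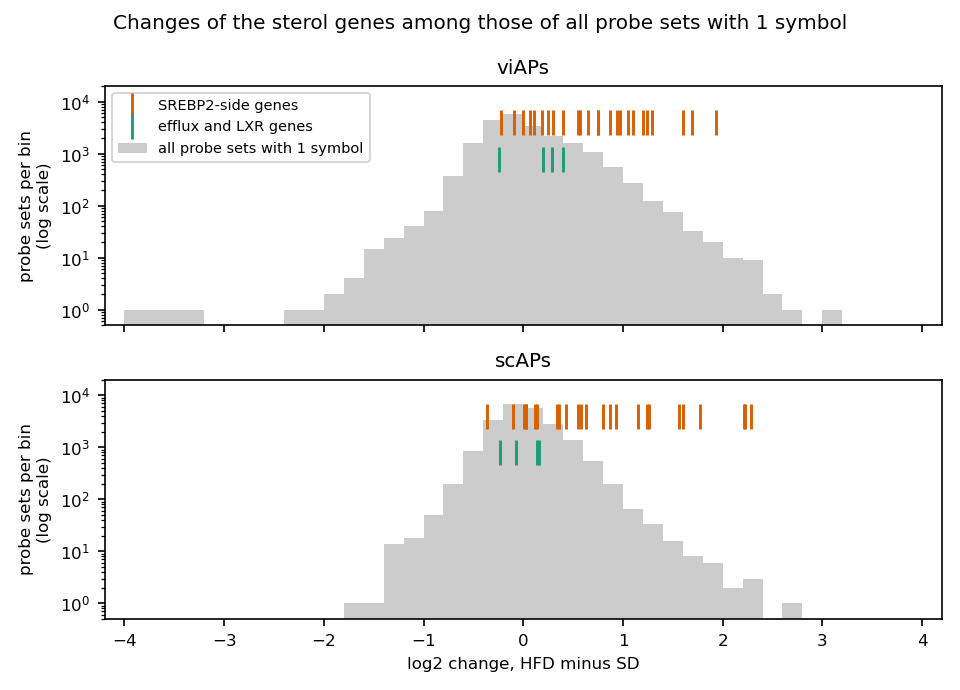
Log2 change of HFD against SD (x axis) for all 21789 probe sets with 1 symbol (grey bars, probe sets per bin of 0.2 on a log scale), with a tick for each of the 25 SREBP2-side genes (orange) and 4 efflux and LXR genes (green), in viAPs (upper panel) and scAPs (lower panel). In scAPs Cyp51, Sqle and Idi1 lie at the right edge of the distribution, at 2.28, 2.22 and 2.21.

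Markers of cell types changed with the diet as well. For their counts the background is the one above. In viAPs 60.5% of filtered probe sets were called higher and 4.49% lower, and in scAPs 20% and 0.715%. Over all probe sets with 1 symbol, 8.45% were called higher in viAPs and 1.06% in scAPs. Among 12 endothelial markers 8 were called higher in HFD scAPs than in SD scAPs, their summed intensity was 2857 to 2886 in HFD scAPs and 1590 to 1687 in SD scAPs, and Pecam1, which encodes CD31, had levels of 7.78 and 7.70 in HFD scAPs against 6.25 and 6.38 in SD scAPs. In viAPs the endothelial sum was 1429 to 1504 on HFD and 1267 to 1280 on SD, with 1 of 12 called higher. That sum leans on the brightest marker, Tek, at 9.71 and 9.78 in HFD viAPs against 9.13 and 8.97 in SD viAPs. The median change of the 12 in viAPs was -0.28. Both HFD viAP arrays lay below both SD viAP arrays for 6 of them and above for 2. The sum of 7 adipocyte markers, most of it Car3 in the SD groups, was 744 to 771 in HFD viAPs and 2914 to 3002 in SD viAPs, with 3 called lower, and 1531 to 2171 in HFD scAPs and 2454 to 3324 in SD scAPs, with 1 called lower. The sum of 7 precursor markers was 13421 to 13603 in HFD viAPs and 7527 to 9458 in SD viAPs, with 4 called higher, and 14761 to 15526 in HFD scAPs and 10888 to 14392 in SD scAPs, with 2 called higher. None of 12 macrophage markers and none of 6 leukocyte markers was called in either depot. The part of these cells in the sterol changes was not tested, and in such bulk samples fewer cells of a type and less RNA per cell cannot be told apart.

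**Figure D2:**
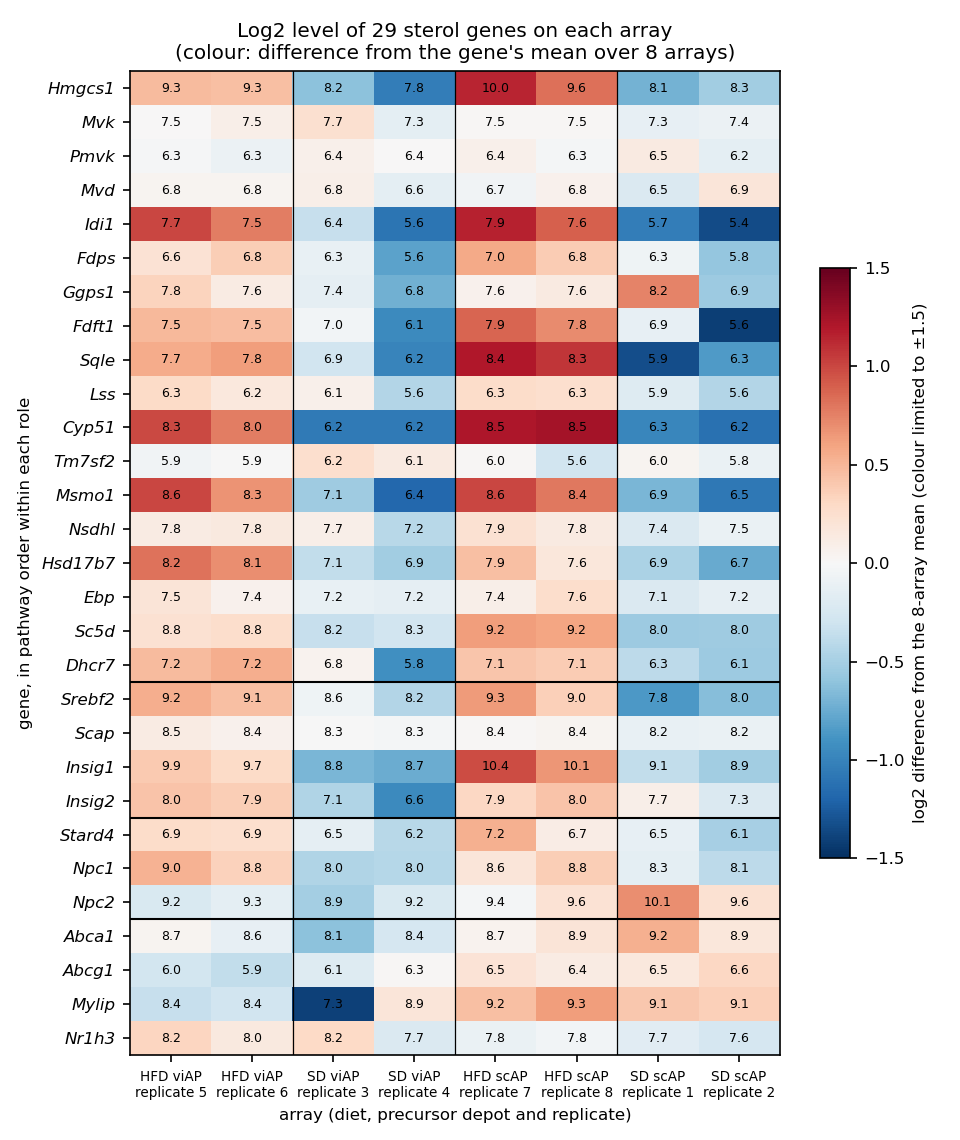
Log2 level of the 29 genes (rows, in pathway order, with lines between synthesis, SREBP2 regulators, transport, and efflux with LXR) on each of the 8 arrays (columns). Numbers are log2 levels and colours the difference from each gene's mean over the 8 arrays, limited to 1.5 either way. Cyp51 is between 8.05 and 8.54 on the 4 HFD arrays and between 6.17 and 6.30 on the 4 SD arrays.

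Synthesis opens with Hmgcs1, whose enzyme joins acetyl-CoA to acetoacetyl-CoA on the way to mevalonate. Hmgcs1 had levels of 9.29 and 9.27 in HFD viAPs against 8.20 and 7.79 in SD viAPs, and 9.96 and 9.65 in HFD scAPs against 8.11 and 8.30 in SD scAPs. Both HFD groups lay above both SD groups without overlap. Its change was 1.29 ± 0.20 (SE) in viAPs, or 2.44-fold (adjusted p = 0.0048), and 1.60 ± 0.20 in scAPs, or 3.03-fold (adjusted p = 0.010).

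The 3 enzymes that follow along mevalonate were not called. Mvk, mevalonate kinase, changed by 0.00 in viAPs and 0.12 in scAPs. Pmvk, phosphomevalonate kinase, changed by -0.09 in viAPs and 0.02 in scAPs. Mvd, the decarboxylase that yields isopentenyl diphosphate, changed by 0.06 in viAPs and 0.03 in scAPs. The viAP changes without SD viAP replicate 4 were -0.19 for Mvk and -0.05 for Mvd. The levels of the 3 genes stayed between 6.21 and 7.70 on all arrays, and each had HFD and SD arrays that overlapped in at least 1 depot, so no increase like that of Hmgcs1 was measured at these steps. None of the 3 passed the filter.

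Idi1 turns isopentenyl diphosphate into its reactive isomer. Its levels were 7.74 and 7.50 in HFD viAPs against 6.39 and 5.64 in SD viAPs, and 7.89 and 7.63 in HFD scAPs against 5.70 and 5.39 in SD scAPs. The HFD arrays lay above the SD arrays in both depots. The change was 1.60 ± 0.26 in viAPs (3.04-fold, adjusted p = 0.0051) and 2.21 ± 0.26 in scAPs (4.64-fold, adjusted p = 0.010). A dimmer probe set of Idi1 changed by 1.30 (adjusted p = 0.0057) in viAPs and 1.91 (adjusted p = 0.010) in scAPs, and whether either takes up signal from a near-identical copy was not tested.

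Fdps and Ggps1 make the longer isoprenoids, and Fdft1 commits farnesyl diphosphate to squalene. Fdps changed by 0.75 ± 0.24 in viAPs (adjusted p = 0.085) and 0.80 ± 0.24 in scAPs (adjusted p = 0.15) and was not called, although both HFD arrays lay above both SD arrays in each depot. Ggps1, which serves protein prenylation and not sterol, changed by 0.65 ± 0.38 in viAPs (adjusted p = 0.15) and 0.00 ± 0.38 in scAPs (adjusted p = 0.99), with SD scAPs as far apart as 8.23 and 6.94. Fdft1 had levels of 7.94 and 7.76 in HFD scAPs against 6.93 and 5.64 in SD scAPs, and 7.54 and 7.52 in HFD viAPs against 7.02 and 6.11 in SD viAPs. Fdft1 rose in scAPs, by 1.56 ± 0.41 (2.95-fold, adjusted p = 0.039), and its change in viAPs was 0.97 ± 0.41 (adjusted p = 0.066). Without the filter the adjusted p in scAPs was 0.095 and the call was lost, and without SD viAP replicate 4 the viAP changes were 0.51 for Fdft1, 0.41 for Fdps and 0.36 for Ggps1. The dimmer probe set of Fdft1 was called in both depots, with changes of 1.64 in scAPs (adjusted p = 0.022) and 0.83 in viAPs (adjusted p = 0.048), so the viAP call of Fdft1 depends on the probe set.

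Sqle, squalene epoxidase, is a rate-limiting step after mevalonate. It had levels of 7.75 and 7.81 in HFD viAPs against 6.89 and 6.19 in SD viAPs, and 8.38 and 8.26 in HFD scAPs against 5.86 and 6.34 in SD scAPs. The HFD arrays lay above the SD arrays in both depots. The change was 1.24 ± 0.26 in viAPs (2.36-fold, adjusted p = 0.0080) and 2.22 ± 0.26 in scAPs (4.66-fold, adjusted p = 0.010). Lss, which closes squalene epoxide into lanosterol, changed by 0.40 ± 0.18 in viAPs (adjusted p = 0.18) and 0.58 ± 0.18 in scAPs (adjusted p = 0.16), and by 0.15 in viAPs without SD viAP replicate 4.

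Cyp51, the demethylase that acts on lanosterol, had the largest change of the 29 genes in each depot. Its levels were 8.28 and 8.05 in HFD viAPs against 6.23 and 6.23 in SD viAPs, and 8.50 and 8.54 in HFD scAPs against 6.30 and 6.17 in SD scAPs. The 4 HFD arrays formed 1 narrow band and the 4 SD arrays another, with no array in between. The change was 1.93 ± 0.17 in viAPs (3.82-fold, adjusted p = 0.0017) and 2.28 ± 0.17 in scAPs (4.86-fold, adjusted p = 0.0013). Cyp51 was the only gene called in both depots with any 1 of the 8 arrays left out.

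The steps after lanosterol did not all move. Msmo1, the methylsterol oxidase, rose by 1.70 ± 0.26 in viAPs (adjusted p = 0.0048) and 1.77 ± 0.26 in scAPs (adjusted p = 0.017). Its levels were 8.61 and 8.29 in HFD viAPs against 7.08 and 6.43 in SD viAPs, and 8.61 and 8.39 in HFD scAPs against 6.92 and 6.54 in SD scAPs. Hsd17b7, the ketoreductase that acts with it, had levels of 8.23 and 8.11 in HFD viAPs against 7.06 and 6.89 in SD viAPs, and 7.86 and 7.59 in HFD scAPs against 6.94 and 6.66 in SD scAPs. Neither gene had overlapping diets in either depot. Hsd17b7 rose by 1.20 ± 0.19 in viAPs (adjusted p = 0.0048) and 0.93 ± 0.19 in scAPs (adjusted p = 0.023). Nsdhl, the dehydrogenase between them, was not called, with changes of 0.30 ± 0.17 in viAPs (adjusted p = 0.28) and 0.34 ± 0.17 in scAPs (adjusted p = 0.37), and 0.04 in viAPs without SD viAP replicate 4. Tm7sf2, a sterol reductase, and Ebp, an isomerase, were not called either. Tm7sf2 changed by -0.22 in viAPs and -0.11 in scAPs, and Ebp by 0.25 in viAPs and 0.36 in scAPs.

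The last steps are carried by Sc5d, the desaturase that makes the ring double bond, and Dhcr7, which reduces the final intermediate to cholesterol. Sc5d had levels of 8.79 and 8.83 in HFD viAPs against 8.21 and 8.27 in SD viAPs, and 9.19 and 9.16 in HFD scAPs against 8.01 and 8.03 in SD scAPs. Replicates of Sc5d lay closer to each other than to any array of the other diet. It rose by 0.57 ± 0.15 in viAPs (adjusted p = 0.016) and 1.16 ± 0.15 in scAPs (adjusted p = 0.012). Dhcr7 had levels of 7.17 and 7.24 in HFD viAPs against 6.75 and 5.78 in SD viAPs, and 7.11 and 7.08 in HFD scAPs against 6.30 and 6.15 in SD scAPs. It was called higher in viAPs, by 0.94 ± 0.28 (adjusted p = 0.022), but in the fit without the filter the adjusted p was 0.058, and without SD viAP replicate 4, the array at 5.78, the change was 0.45 and no longer called (adjusted p = 0.073). In scAPs its change of 0.87 ± 0.28 was not called (adjusted p = 0.059).

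**Figure D3:**
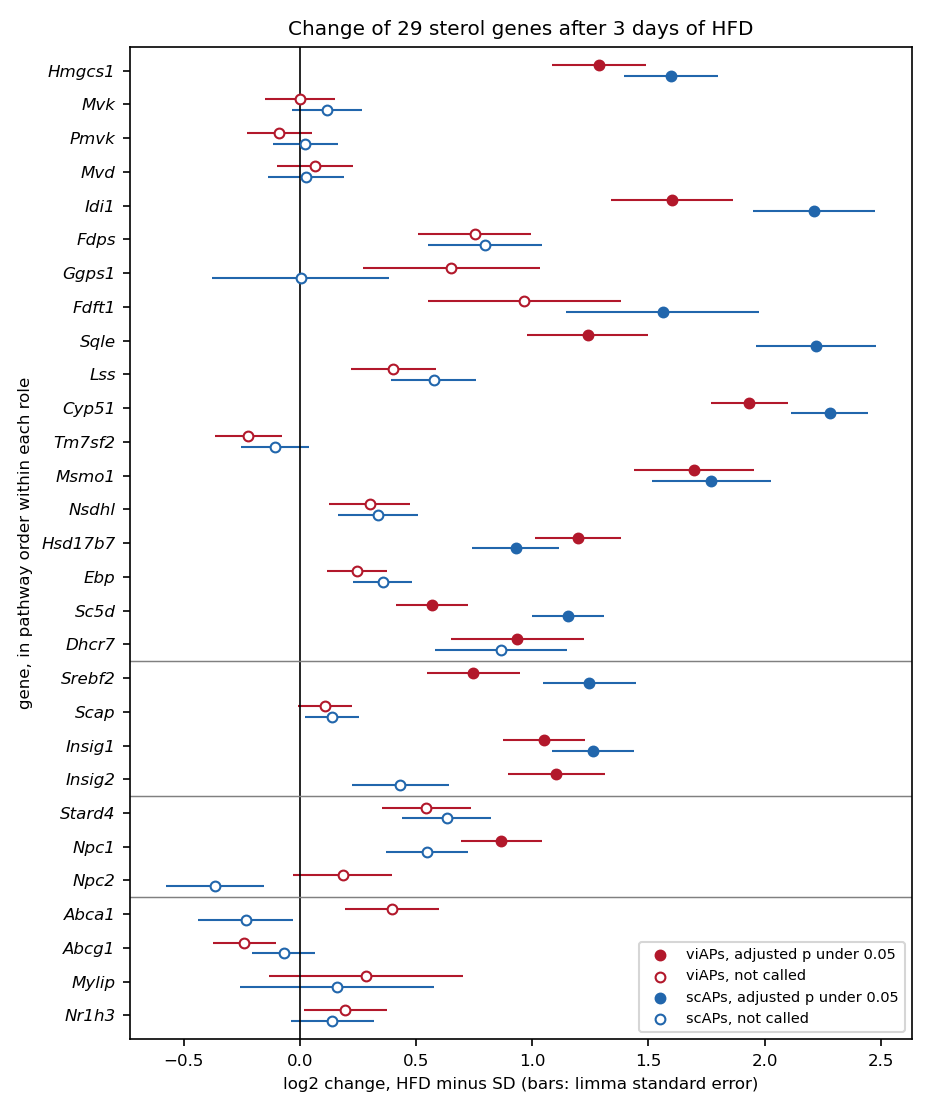
Log2 change, HFD minus SD (x axis), with the limma standard error (bars) for the 29 genes (y axis, in pathway order) in viAPs (red) and scAPs (blue). Filled points had an adjusted p under 0.05, and open points did not. The filled points lie among the synthesis genes, the regulators and, in viAPs, Npc1, whereas the 4 genes at the bottom, from Abca1 to Nr1h3, are open in both depots.

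Among the regulators, Srebf2 encodes SREBP2 itself. Its levels were 9.19 and 9.10 in HFD viAPs against 8.58 and 8.21 in SD viAPs, and 9.29 and 9.00 in HFD scAPs against 7.79 and 8.01 in SD scAPs. HFD arrays were above SD arrays in both depots. Srebf2 rose by 0.75 ± 0.20 in viAPs (adjusted p = 0.015) and 1.25 ± 0.20 in scAPs (adjusted p = 0.019). Without SD viAP replicate 4 the viAP change was 0.56 and was not called (adjusted p = 0.053). Scap, the escort, changed by 0.11 ± 0.12 in viAPs and 0.14 ± 0.12 in scAPs and was not called.

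Both genes of the retention proteins rose in viAPs, and 1 of them, Insig1, also in scAPs. Insig1 had levels of 9.85 and 9.74 in HFD viAPs against 8.77 and 8.72 in SD viAPs, and 10.43 and 10.12 in HFD scAPs against 9.09 and 8.94 in SD scAPs. It rose by 1.05 ± 0.18 in viAPs (2.07-fold, adjusted p = 0.0052) and 1.26 ± 0.18 in scAPs (2.40-fold, adjusted p = 0.015), without overlap of the diets. Insig2 had levels of 7.99 and 7.94 in HFD viAPs against 7.11 and 6.61 in SD viAPs, and 7.88 and 7.99 in HFD scAPs against 7.65 and 7.35 in SD scAPs. It rose by 1.10 ± 0.21 in viAPs (2.15-fold, adjusted p = 0.0063), and its change in scAPs was 0.43 ± 0.21 (adjusted p = 0.15). The difference between the 2 changes of Insig2 was 0.67 ± 0.30 (limma adjusted p = 0.47). SD viAP replicate 4, the lower SD viAP array at 6.61, enlarges this difference.

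Transport genes varied in kind. Npc1 exports cholesterol from lysosomes, after NPC2 hands it over. Npc1 had levels of 8.97 and 8.79 in HFD viAPs against 8.01 and 8.03 in SD viAPs, and rose by 0.87 ± 0.18 (adjusted p = 0.0073). In scAPs Npc1 had levels of 8.63 and 8.83 on HFD against 8.30 and 8.06 on SD, a change of 0.55 ± 0.18 that was not called (adjusted p = 0.057). Npc2 was not called, with a change of 0.18 ± 0.21 in viAPs (adjusted p = 0.44) and of -0.37 ± 0.21 in scAPs (adjusted p = 0.21). Stard4, a cytosolic sterol carrier, changed by 0.54 ± 0.19 in viAPs (adjusted p = 0.10) and 0.63 ± 0.19 in scAPs (adjusted p = 0.14).

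None of the 4 efflux and LXR genes was called with all arrays, in either depot. Abca1, the pump that loads cholesterol onto apolipoprotein, had levels of 8.72 and 8.56 in HFD viAPs against 8.06 and 8.43 in SD viAPs, and 8.73 and 8.87 in HFD scAPs against 9.21 and 8.85 in SD scAPs. The viAP values did not overlap and the scAP values did. The change was 0.40 ± 0.20 in viAPs (adjusted p = 0.11), or 0.58 without SD viAP replicate 4 (adjusted p = 0.053), and -0.23 ± 0.20 in scAPs (adjusted p = 0.39). Abcg1, the pump that acts with ABCA1, changed by -0.24 ± 0.14 in viAPs (adjusted p = 0.27) and -0.07 ± 0.14 in scAPs (adjusted p = 0.85). Nr1h3, which encodes the alpha form of LXR, changed by 0.20 ± 0.18 in viAPs (adjusted p = 0.49) and 0.14 ± 0.18 in scAPs (adjusted p = 0.75). In viAPs without SD viAP replicate 4, Abcg1 changed by -0.13, Nr1h3 by -0.06 and Npc2 by 0.32.

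Mylip rested on 1 array in viAPs. It had levels of 8.35 and 8.41 in HFD viAPs against 7.30 and 8.89 in SD viAPs, and 9.16 and 9.33 in HFD scAPs against 9.11 and 9.06 in SD scAPs. With all arrays its viAP change was 0.29 ± 0.42 (adjusted p = 0.54). Without SD viAP replicate 4, the array that lay with the scAPs, the change was 1.08 and was called higher (adjusted p = 0.0066), and without SD viAP replicate 3 it was -0.51 and was called lower (adjusted p = 0.042). Each of these calls sets 2 HFD arrays against 1 SD pool, with the spread taken from the other groups. In scAPs its change was 0.16 ± 0.42 (adjusted p = 0.78).

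**Figure D4:**
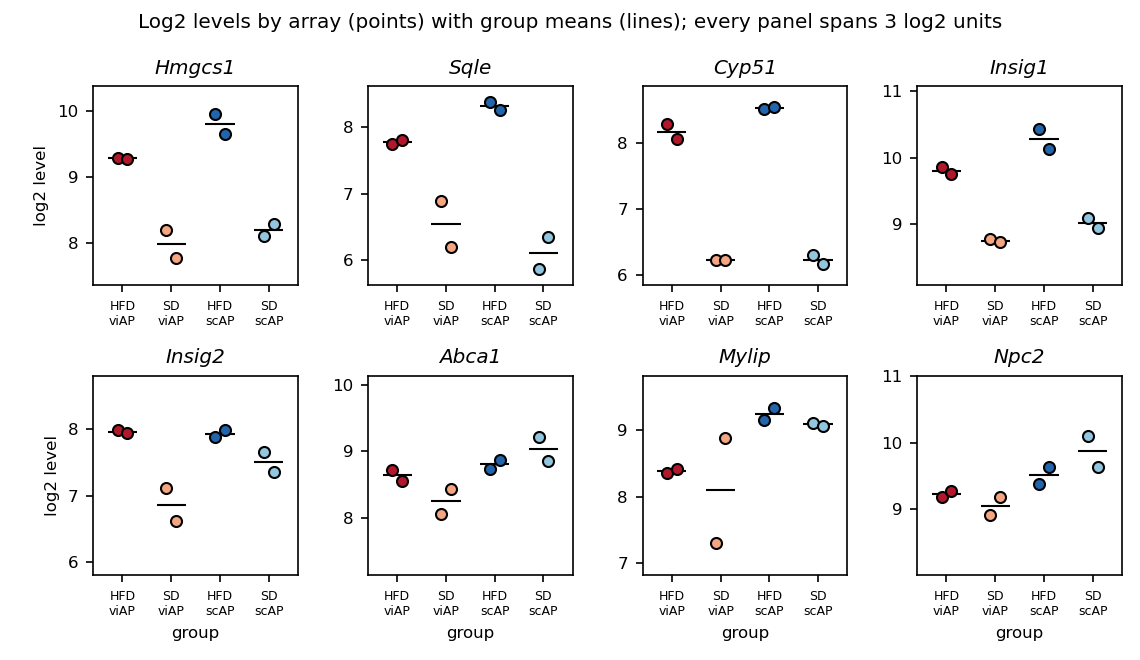
Log2 level (y axis, every panel spanning 3 units) on each array (points) with group means (lines) for 8 genes in HFD viAPs, SD viAPs, HFD scAPs and SD scAPs (x axis). Cyp51 and Insig1 separate the diets in both depots, Insig2 separates them more in viAPs, and the 2 SD viAP points of Mylip lie at 7.30 and 8.89.

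The sides were also set against each other on each array. As the median difference from each gene's mean over 8 arrays, the SREBP2 side stood at 0.33 and 0.28 in HFD viAPs against -0.13 and -0.44 in SD viAPs, and at 0.41 and 0.35 in HFD scAPs against -0.21 and -0.52 in SD scAPs. Every HFD array lay above every SD array. The efflux and LXR side stood at -0.12 and -0.21 in HFD viAPs against -0.40 and -0.10 in SD viAPs, and at 0.13 and 0.16 in HFD scAPs against 0.28 and 0.25 in SD scAPs. It overlapped between diets in viAPs, was lower on HFD in scAPs, and was lower on all viAP arrays than on all scAP arrays. The median change of the same genes in scAPs was 0.03, so the direction there depends on how these few genes are summarised. The median change of the SREBP2 side exceeded that of the efflux and LXR side by 0.51 in viAPs and 0.60 in scAPs, where the spread between arrays of a group was 0.24 (pooled SD of the difference). Without SD viAP replicate 4 the viAP value was 0.19, and without SD viAP replicate 3 it was 1.00. The spread of 0.24 includes both of these arrays, so it cannot be used to judge either value. These medians are given as a description, with no test.

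**Figure D5:**
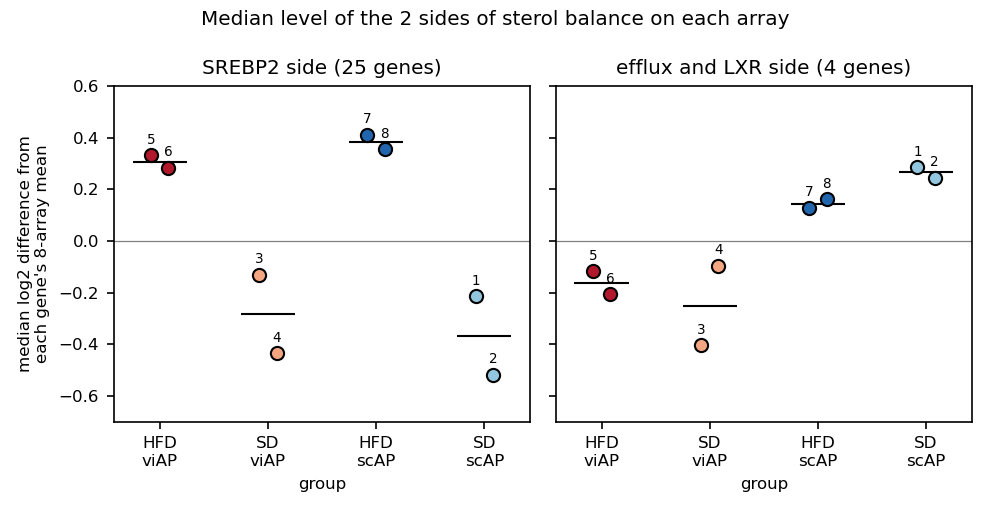
Median log2 difference from each gene's mean over 8 arrays (y axis) for the 25 SREBP2-side genes (left) and the 4 efflux and LXR genes (right), by group (x axis), with a point for each array, its replicate number and a line for the group mean. The 4 HFD arrays lie between 0.28 and 0.41 on the SREBP2 side and the 4 SD arrays between -0.52 and -0.13.

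With all 8 arrays in the fit, no difference between depots was called for a sterol gene. By limma, the viAP change minus the scAP change was called for none of the 29 genes, and for 2 of them the unadjusted p was under 0.05. The difference was -0.98 ± 0.37 for Sqle and -0.59 ± 0.22 for Sc5d, both with a limma adjusted p = 0.44. Of the probe sets passing the filter 0% were called in that comparison. SD viAPs and SD scAPs differed in no sterol gene by limma, with 6 at an unadjusted p under 0.05 and 0% of filtered probe sets called. Without SD viAP replicate 4, which leaves 1 pool in SD viAPs and takes the spread from the other groups, 17.3% of filtered probe sets were called and 5 sterol genes were among them. Idi1 (0.85, adjusted p = 0.034) and Sqle (0.80, adjusted p = 0.045) were then higher in SD viAPs than in SD scAPs, and Npc2 (-0.96, adjusted p = 0.025), Abca1 (-0.97, adjusted p = 0.017) and Mylip (-1.78, adjusted p = 0.00053) were lower. These values share their control arrays with the diet changes above.

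On HFD, no sterol gene was called between viAPs and scAPs with all 8 arrays in the fit, 5 had an unadjusted p under 0.05, and 5.17% of filtered probe sets were called. Fitting only the 4 HFD arrays called 6 sterol genes, Hsd17b7 higher in HFD viAPs (0.44, adjusted p = 0.040) and Hmgcs1, Sqle, Sc5d, Insig1 and Mylip lower, with adjusted p between 0.0013 and 0.042, where 29.1% of filtered probe sets were called. Both viAP arrays lay above both scAP arrays for 4 genes and below for 11, while the shares over all probe sets were 20.3% and 20%, and among those passing the filter 39.5% and 27.1%. Abcg1 had levels of 6.02 and 5.93 in HFD viAPs against 6.51 and 6.43 in HFD scAPs, a difference of -0.49 ± 0.14 (adjusted p = 0.15). Insig1 differed by -0.48 ± 0.18 (adjusted p = 0.15) and Hmgcs1 by -0.52 ± 0.20 (adjusted p = 0.17). Mylip, at -0.86 ± 0.42 with all arrays (adjusted p = 0.27), was called lower in HFD viAPs without SD viAP replicate 4 (adjusted p = 0.0048) at the same HFD levels.

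The number of calls depended on single arrays, for the sterol genes and for the whole table. Without HFD viAP replicate 5 only Cyp51 remained called in viAPs of the SREBP2 side, and 0.293% of filtered probe sets were called higher. Without HFD scAP replicate 7 or replicate 8 only Cyp51 was called in scAPs, with 0.0325% and 0.065% of probe sets called higher. Without SD scAP replicate 2 it was 3 genes in scAPs, with 0.553% of probe sets. Without SD viAP replicate 4, 10 SREBP2-side genes were called in viAPs and 12 in scAPs, with 46.2% and 34.6% of probe sets called higher.

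Other genes of the same processes were taken from lists of 72 names, of which 64 were measured. In viAPs 13 of 64 rose and none fell, with a median change of 0.17, and in scAPs 4 rose and none fell, with a median of 0.16. Of 14 genes of SREBP processing and turnover, 4 rose in viAPs, among them Sec24d (0.90, adjusted p = 0.0080) and Sec23a (0.82, adjusted p = 0.023), which build the COPII coat that carries SCAP to the Golgi. Of 16 genes around acetyl-CoA and isoprenoids, 4 rose in viAPs and 2 in scAPs, Acly (0.54, adjusted p = 0.049), which makes cytosolic acetyl-CoA, and Acat1 (0.64, adjusted p = 0.035), which makes acetoacetyl-CoA in mitochondria. Of 19 genes of sterol handling inside the cell, 4 rose in viAPs, among them Gramd1b (0.90, adjusted p = 0.016), which moves sterol from the plasma membrane to the endoplasmic reticulum, and Osbpl8 (0.87, adjusted p = 0.010), a lipid exchanger at membrane contacts. In scAPs Lrp1, an endocytic lipoprotein receptor, rose by 0.70 (adjusted p = 0.029) and Sec24d by 0.67 (adjusted p = 0.044). Of 15 further LXR and efflux genes, 1 rose in viAPs and none in scAPs. Cyp27a1, which makes an oxysterol, was higher in HFD viAPs than in HFD scAPs by 1.03 (adjusted p = 0.030). The background in viAPs is the one above, with 60.5% of filtered probe sets and 8.45% of all probe sets called higher, and in scAPs 20% and 1.06%.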

How the data were processed

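RNA of 8 pools was hybridised to Affymetrix Mouse Gene 1.0 ST arrays, and the authors normalized them by RMA (the submitters' processing notes name Affymetrix Expression Console 1.1, the methods the R package oligo) and deposited linear intensity values for 35556 probe sets. Here log2 of the deposited intensity was tested with limma 3.58.1 in R 4.3.3, as 1 mean per group over all 8 arrays, with Benjamini-Hochberg adjustment and 4 residual degrees of freedom. Gene names came from the platform annotation, in which 21789 probe sets had 1 symbol, 1621 several and 12146 none. Where a gene had several probe sets the one with the highest mean was used. All listed genes are named, and from the wider lists at most the 4 largest called changes per comparison. The members and lists were chosen with earlier results of these data known. The fits were tested on simulated data. Alternatives were the arrays in the fit, an offset of 16, median centring, quantile normalization, filters, an intensity trend, probe set averages and each array left out; moderation over all 35556 probe sets was added after seeing the data. The number of arrays, 2 per group, limits the precision. Motifs were searched in Python 3.11.15 and figures drawn with matplotlib 3.10.9.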

Additional observations from a re-analysis of the deposited data

How the results depend on the processing

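No paired analysis was made, because the array numbers 1 to 8 are shared by no groups and the labels give no other pairing. The labels do not say whether visceral and subcutaneous pools of a diet came from the same mice. The comparisons between depots treat these pools as independent. Over the settings that leave out no array by replicate, 9 to 15 SREBP2-side genes were called in viAPs and 9 to 12 in scAPs. Fitting only the 4 arrays of a comparison called 6 genes between HFD viAPs and HFD scAPs (Hsd17b7 higher; Hmgcs1, Sqle, Sc5d, Insig1 and Mylip lower), against none with all arrays. With 1 array left out, the SREBP2-side counts were 1 to 14 in viAPs and 1 to 12 in scAPs, the efflux and LXR counts 0 to 1 in viAPs and 0 in scAPs, the depot counts 0 to 5 on SD and 0 to 1 on HFD, and the median difference between sides 0.19 to 1.00 in viAPs and 0.40 to 0.82 in scAPs. Mylip in viAPs was 1.08 without SD viAP replicate 4 and reversed to -0.51 without SD viAP replicate 3; the cause was not tested. Quantile normalization lost Sc5d and Srebf2 in viAPs, and it and the fit without a filter lost Dhcr7 in viAPs and Fdft1 in scAPs. Dhcr7 in viAPs was also lost in the fit of 4 arrays. Median centring moved the median of all probe sets to 0.09 in viAPs and 0.09 in scAPs, from -0.05 and 0.00, and quantile normalization to 0.01 and 0.03.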
